A study of Mus musculus with 1 sample.

Results

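To describe the transcription factors that mark deep-layer neurons of the newborn cortex, 10 genes (Bcl11b, Fezf2, Tbr1, Sox5, Tle4, Foxp2, Zfpm2, Etv1, Tshz2 and Nr4a2) were read out of a single-cell RNA sequencing (sc-RNA Seq) table of 51912 genes. They were chosen by symbol as regulators named for cortical layers V, VI and VIb, and all 10 had a row in the table. The cells came from the cerebral cortex of wild-type (WT) C57BL/6 mice at P0, the day of birth, were dissociated with papain and were captured on the 10x Chromium platform, in which each transcript molecule carries a unique molecular identifier (UMI). There was 1 WT library of 11062 cells and 90346034 UMIs, and the SERPINA3 knock-in group and the triplicates that the design text names were not analysed here. With 1 library there is no replicate error and no test. Intervals in brackets are exact 95% intervals that cover counting error only.

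Projection neurons of the cortex are born in sequence, and those of the deep layers arise first. Subcerebral neurons of layer V send axons to the brainstem and spinal cord, corticothalamic neurons of layer VI send them to the thalamus, and the subplate forms layer VIb beneath them. The genes studied here are known from mouse genetics as a network: Fezf2 acts upstream of Bcl11b (CTIP2) in subcerebral neurons, and Tbr1 and Sox5 restrain that programme in layer VI.

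Neurons were assigned to layers by marker genes outside the 10, so that no value of these genes chose the cells in which they were measured. A gate asked for at least 3 marker UMIs and for a marker level per 10000 UMIs above a set cut, in cells of at least 2000 UMIs. The gates held 138 layer V neurons, 931 layer VI neurons and 63 layer VIb neurons, together 1132 deep gated neurons. On the other side stood 3461 upper gated neurons, of which 802 were of layer IV and 2659 of layer II/III. The layer II/III neurons were split by Igfbpl1, a gene of young neurons, into 927 with a low and 1732 with a high level. A further 343 cells were newborn neurons with Eomes and related genes, and 1520 excitatory neurons passed no layer gate or went against its limits on other layers' markers, and stayed unresolved. As the gates fixed, their markers were high in their groups: Hs3st4 stood at 630 CPM (UMIs of a gene per 1e6 UMIs of the group) in layer VI neurons and at 41.8 CPM in the other groups, Nxph4 at 142 and 5.50 CPM for layer VIb, and Rorb at 371 and 55.8 CPM for layer IV. Cux2, a marker of the upper layers, was less distinct, at 154 CPM in Igfbpl1-low layer II/III and 83.4 CPM in the other groups. In Igfbpl1-high layer II/III it stood at 190 CPM, against 73.1 CPM in the other groups. Both pools of other groups contain the remaining upper groups. These values describe the gates and do not test them.

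The gates are ranges and not cell types. Within 20% of a cut lay 344 excitatory neurons for layer V, 348 for layer VI, 91 for layer VIb and 831 for the upper layers. The median of the layer VI marker sum was 24.6 UMIs per 10000 in layer VI neurons, 7.25 in layer V neurons and 14.2 in layer VIb neurons. The layer VIb gate admitted cells above the layer VI cut of 12, whereas the layer V gate excluded them. Median depth was 20700 UMIs in layer V, 9308 in layer VI, 15270 in layer VIb and 8702 in upper gated neurons, so shares of cells are given after every cell had been thinned to 2000 UMIs, with the unthinned share where it matters. Levels are UMIs summed over the cells of a group, in CPM without mitochondrial genes, and they are compared between groups for 1 gene but not between genes, whose capture at the 3′ end differs.

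The genes lie on 6 chromosomes of the mouse genome (GRCm38, GENCODE M21). Bcl11b spans chr12:107910403-108003602 and Fezf2 chr14:12342094-12348189, both on the minus strand. Tbr1 lies at chr2:61802930-61814114 on the plus strand and Sox5 at chr6:143828425-144781977 on the minus strand. Promoter sequences came from RefSeq (GRCm38.p6) and were found for 8 of the 10 genes, in 10 entries, since Tle4 and Etv1 have a pair each. Foxp2 and Zfpm2 had no entry. The 250 bases before an annotated start were searched on both strands for short motifs of the families to which these factors belong: SOX (ATTGTT), forkhead (TGTTTAC), T-box (TCACACCT), ETS (CCGGAAGT) and NR4A (AAAGGTCA). None of these motifs contains another. The SOX motif occurred in 4 of the 10 entries (Tbr1, Nr4a2, and 1 of the entries of Tle4 and of Etv1), against 9.42% of 32851 promoters of all genes. The forkhead, T-box, ETS and NR4A motifs occurred in 0 of the 10 entries, against 3.17%, 1.12%, 2.88% and 1.34% of all promoters. A match describes the letters and not a binding site.

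Windows are shown for Bcl11b, Fezf2 and Sox5, as regulators known for layers V and VI, and for Tbr1 and Nr4a2, each of which has a single window that holds the SOX motif, given in capitals. GENCODE annotates 2 starts for Bcl11b, 3 for Fezf2, 12 for Sox5, 4 for Tbr1 and 4 for Nr4a2, and each window belongs to the 1 start in the RefSeq table. The Fezf2, Sox5 and Tbr1 windows lie inside the GENCODE spans of their genes, downstream of the outermost start. The Bcl11b window lies partly inside its span. Each sequence runs 5′ to 3′ on the strand of its gene and ends 1 base before the start.
Bcl11b, chr12:108003415-108003664, minus strand: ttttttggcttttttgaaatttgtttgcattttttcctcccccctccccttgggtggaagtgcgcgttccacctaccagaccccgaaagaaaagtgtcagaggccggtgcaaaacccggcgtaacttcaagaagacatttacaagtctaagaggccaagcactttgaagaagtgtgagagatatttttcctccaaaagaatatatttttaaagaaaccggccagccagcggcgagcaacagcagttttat
Fezf2, chr14:12345866-12346115, minus strand: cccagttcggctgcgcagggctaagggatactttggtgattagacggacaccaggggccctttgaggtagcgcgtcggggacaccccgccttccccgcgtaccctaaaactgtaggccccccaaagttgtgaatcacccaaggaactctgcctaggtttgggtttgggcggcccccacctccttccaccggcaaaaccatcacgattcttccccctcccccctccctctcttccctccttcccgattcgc
Sox5, chr6:143947107-143947356, minus strand: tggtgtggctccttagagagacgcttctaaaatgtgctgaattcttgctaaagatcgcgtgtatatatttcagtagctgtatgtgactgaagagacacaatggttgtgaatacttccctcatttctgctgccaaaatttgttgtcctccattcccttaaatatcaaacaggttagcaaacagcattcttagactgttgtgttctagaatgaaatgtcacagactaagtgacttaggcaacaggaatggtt
Tbr1, chr2:61804203-61804452, plus strand: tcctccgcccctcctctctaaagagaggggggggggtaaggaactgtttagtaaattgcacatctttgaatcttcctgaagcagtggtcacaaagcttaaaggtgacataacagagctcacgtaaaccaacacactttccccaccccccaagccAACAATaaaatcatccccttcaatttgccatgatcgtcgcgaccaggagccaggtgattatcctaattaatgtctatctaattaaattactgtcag
Nr4a2, chr2:57124004-57124253, minus strand: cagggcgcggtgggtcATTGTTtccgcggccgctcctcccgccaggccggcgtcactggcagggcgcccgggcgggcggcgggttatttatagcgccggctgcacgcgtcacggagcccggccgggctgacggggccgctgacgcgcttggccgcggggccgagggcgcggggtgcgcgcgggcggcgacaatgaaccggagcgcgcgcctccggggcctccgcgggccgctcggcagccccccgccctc
In Tbr1 the SOX motif lay 96 to 91 bases before the start, as its reverse complement AACAAT, and in Nr4a2 it lay 234 to 229 bases before it. The Nr4a2 window was 80% G and C, against a median of 52.4% over all promoters, and the Sox5 window was 39.6%.

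Of the 10 genes, 8 stood at least 2-fold higher in deep than in upper gated neurons and 0 at least 2-fold lower. Over all 9314 genes of at least 10 CPM in either group, 6.13% were that much higher and 4.6% that much lower, and the median ratio was 1.01, beside a median of 14.1 for the 10. Medians of ratios, here and below, were taken on the log scale. All 10 passed the minimum of 10 CPM. Since the genes were picked as deep-layer factors, a high count was built into the choice, and nothing is read from it. The genes short of 2-fold were Tbr1 and Nr4a2.

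The 3 deep groups differed in how much of the set they carried. Against upper gated neurons, 7 of the 10 genes were at least 2-fold higher in layer V and 2 at least 2-fold lower (Tbr1 and Nr4a2), where 5.69% and 7.74% of 9249 genes were. Layer VI had 9 higher and 1 lower (Nr4a2), where 6.42% and 4.65% of 9350 genes were. Layer VIb had 9 higher and 0 lower, where 10.9% and 9.79% of 9465 genes were. The exception was Tshz2, at a ratio of 0.60 (0.34 to 0.99). Of the 9, Etv1 rested on 25 layer VIb UMIs, 18 of them in 1 cell.

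**Figure D1:**
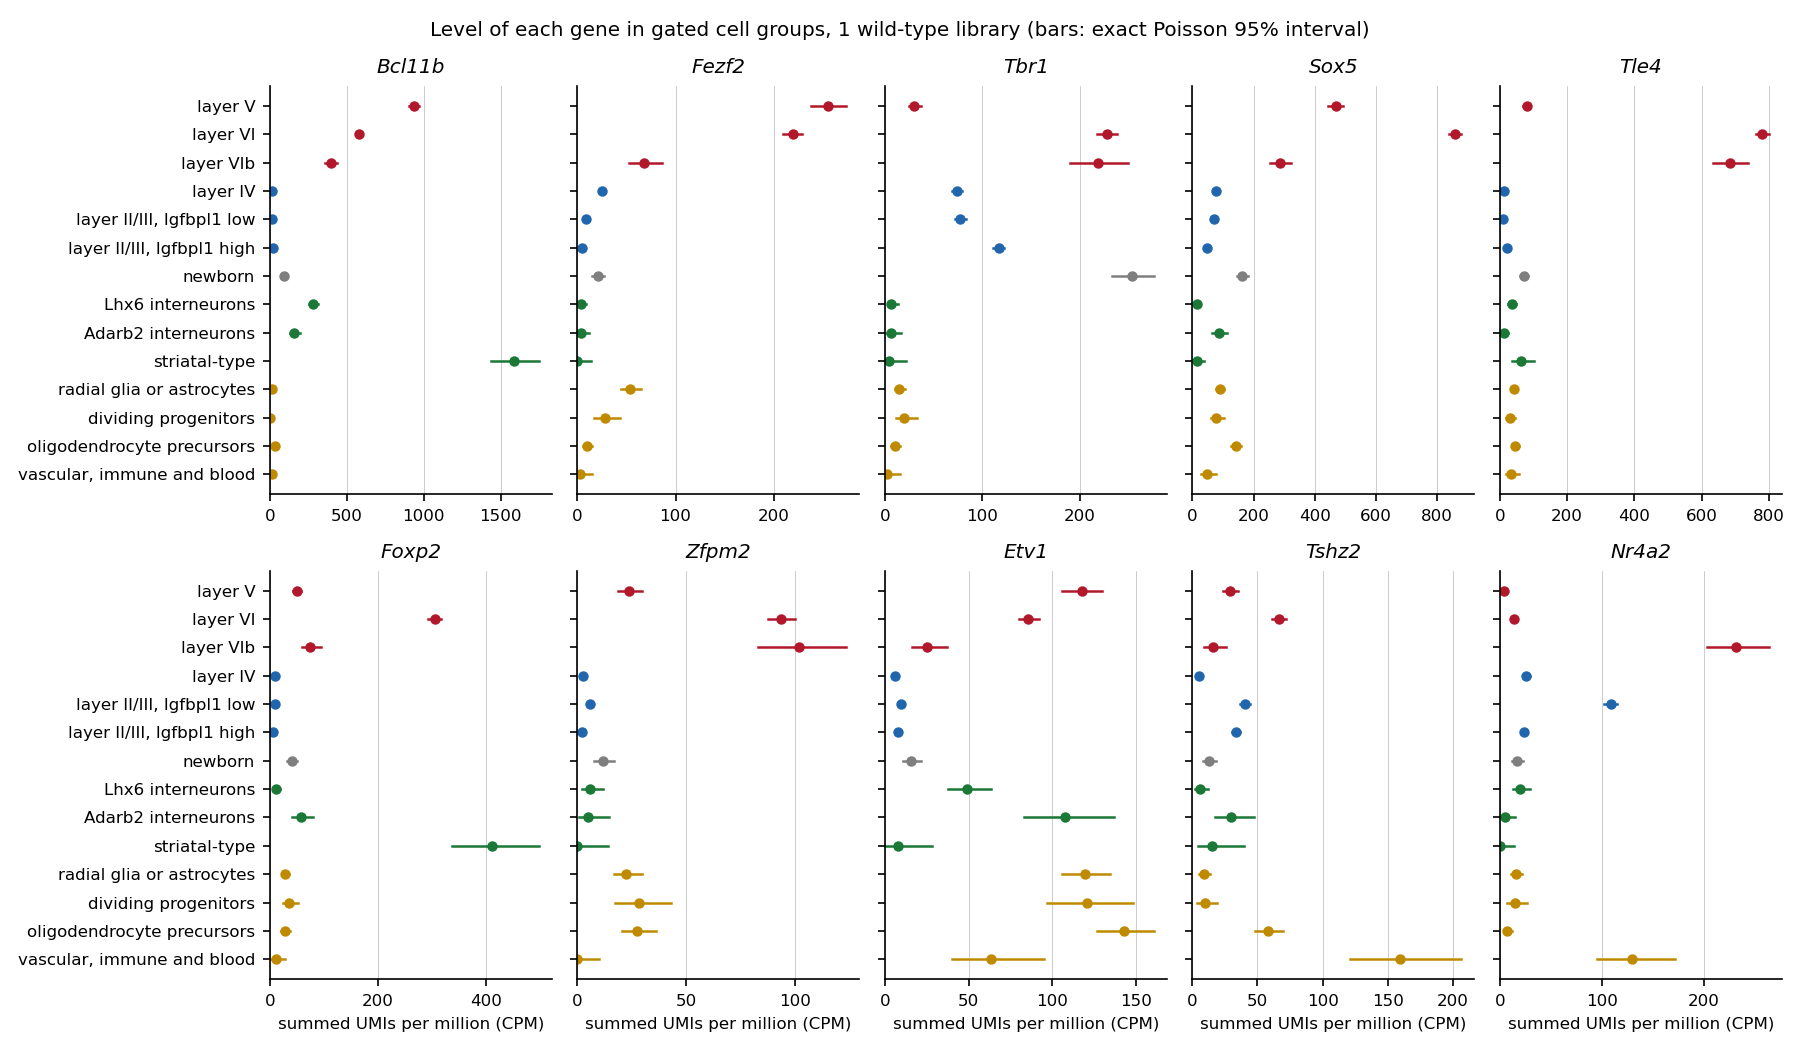
Level of each gene (CPM, x axes from 0, different in each panel) in 14 gated cell groups of the P0 WT cortex; points are levels and bars are exact Poisson 95% intervals, with deep layers in red, upper layers in blue, newborn neurons in grey, inhibitory neurons in green and non-neuronal cells in ochre. Among the excitatory groups drawn, Bcl11b and Fezf2 stand highest in layer V, Sox5, Tle4 and Foxp2 in layer VI, Nr4a2 in layer VIb and Tbr1 in newborn neurons, while striatal-type neurons stand above all of them for Bcl11b and Foxp2.

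The first pair, Bcl11b and Fezf2, direct the subcerebral programme. Bcl11b, a zinc-finger repressor needed for corticospinal axons, stood at 938 CPM (905 to 973) in layer V, 578 CPM (563 to 594) in layer VI and 398 CPM (360 to 439) in layer VIb. In the upper groups it stood at 13.1 CPM in Igfbpl1-low layer II/III, 23.5 CPM in Igfbpl1-high layer II/III and 13.6 CPM in layer IV. The 3 deep groups fell in the order V, VI, VIb with no overlap of their intervals, and each stood far above every upper group. Deep over upper, the ratio was 37.8 (34.7 to 41.1). After thinning, Bcl11b was detected in 80.4% (72.8 to 86.7) of layer V, 62.4% (59.2 to 65.5) of layer VI and 60.3% (47.2 to 72.4) of layer VIb neurons, against 3.27% (2.70 to 3.91) of upper gated neurons. Radial glia or astrocytes, which should lack it, had 1.29% (0.35 to 3.27) at a median of 7210 UMIs, an interval that overlaps the upper share. Without thinning the shares were 93.7% of deep neurons, 11.2% of upper neurons and 7.42% of radial glia or astrocytes. The strongest layer V cell held 65 Bcl11b UMIs.

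Fezf2, the zinc-finger gene that specifies subcerebral identity, followed the same order. It stood at 256 CPM (238 to 274) in layer V and 219 CPM (210 to 229) in layer VI, and then at 67.9 CPM (52.7 to 86.0) in layer VIb. Layer VIb thus held 0.31 (0.24 to 0.39) of the layer VI level, whereas for Bcl11b it held 0.69 (0.62 to 0.76). The ratio of deep to upper neurons was 17.3 (15.6 to 19.2). Among upper groups Fezf2 was not even: layer IV had 25.5 CPM (22.6 to 28.7) and layer II/III 6.51 CPM, a ratio of 3.92 (3.20 to 4.81). In layer IV it was detected in 5.24% of thinned cells and 19.95% of unthinned cells, at a median depth of 12350 UMIs. All inhibitory neurons had shares of 0.503% and 1.51%, at 5104 UMIs. Radial glia or astrocytes had higher shares than layer IV, 7.42% and 28.7%, at 7210 UMIs. Of the other 6 genes of at least 10 CPM in either group, none was 2-fold higher in layer IV than in layer II/III and 2 were at least 2-fold lower (Tshz2 and Nr4a2), where 2.73% and 1.41% of 9012 genes were. The next highest ratio, for Sox5, was 1.35 (1.24 to 1.47).

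Tbr1 and Sox5 are the factors known to hold layer VI neurons apart from the layer V programme. Tbr1, a T-box factor, was found in newborn neurons as well as in layers VI and VIb. It stood at 254 CPM (234 to 276) in newborn neurons, 228 CPM (218 to 238) in layer VI and 219 CPM (191 to 250) in layer VIb, and these 3 intervals overlap. In layer V it stood at 30.2 CPM (24.5 to 36.8), below the 73.7 CPM of layer IV, 77.7 CPM of Igfbpl1-low and 117 CPM of Igfbpl1-high layer II/III. Layer V was therefore the lowest excitatory group for Tbr1, and layer VI over layer V gave a ratio of 7.55 (6.16 to 9.36). The ratio of deep to upper neurons was 1.97 (1.87 to 2.08), just short of 2, and it was 2.003 with a minimum of 5000 UMIs and 2.44 without cells above 20000 UMIs, the latter a setting that left 60 of the 138 layer V neurons.

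Sox5, an SRY-box factor that controls the timing of deep-layer neuron production, stood at 859 CPM (840 to 878) in layer VI, 468 CPM (445 to 492) in layer V and 286 CPM (254 to 322) in layer VIb. It reached 78.7 CPM in layer IV and 164 CPM in newborn neurons. The order VI, V, VIb held without overlap of intervals, and the ratio of deep to upper neurons was 11.1 (10.6 to 11.7). Sox5 was detected in 77.8% (74.96 to 80.4) of thinned layer VI and 60.1% (51.5 to 68.4) of thinned layer V neurons, against 10.3% (9.29 to 11.4) of upper gated neurons. The share was 1.85% in Lhx6 interneurons, 12.3% in Adarb2 interneurons, 16.1% in radial glia or astrocytes and 27.7% in oligodendrocyte precursors, at median depths of 6316, 4569, 7210 and 7769 UMIs, so the upper share lay within the range of these groups.

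Tle4, Foxp2 and Zfpm2 are marks of corticothalamic neurons. Tle4, a Groucho corepressor, stood at 780 CPM in layer VI and 684 CPM (633 to 737) in layer VIb but at 79.7 CPM (70.2 to 90.1) in layer V, which overlapped newborn neurons at 71.3 CPM (60.6 to 83.3). Layer VI over layer V was 9.79 (8.64 to 11.1), and deep over upper was 39.2 (35.9 to 42.9). Tle4 thus set layers VI and VIb together against layer V. The layer VIb gate admitted cells above the layer VI cut, and the layer V gate did not. Tle4 was detected in 78.0%, 69.8% and 16.7% of thinned layer VI, VIb and V neurons, and in 3.03% of upper gated neurons.

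Foxp2, a forkhead factor of corticothalamic and striatal neurons, separated layer VI from layer VIb as well. It stood at 304 CPM (293 to 316) in layer VI, 74.8 CPM (58.9 to 93.8) in layer VIb and 50.1 CPM (42.7 to 58.5) in layer V, with 6.50 to 9.96 CPM in the upper groups. Layer VIb held 0.25 (0.19 to 0.31) of the layer VI level. Zfpm2 (FOG2), a zinc-finger cofactor of GATA factors, behaved like Tle4: 102 CPM (82.98 to 124) in layer VIb and 93.6 CPM (87.5 to 100) in layer VI had overlapping intervals, while layer V stood at 24.0 CPM (18.9 to 30.0). Deep over upper, Foxp2 gave 26.6 (23.5 to 30.1) and Zfpm2 22.1 (18.3 to 27.0). The Zfpm2 ratio lay between 17.9 and 31.95 over the alternative settings.

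Etv1 and Tshz2, an ETS factor and a teashirt-family zinc-finger factor used as layer V markers, were unevenly spread over the deep groups. Etv1 stood at 117 CPM (106 to 130) in layer V, 85.7 CPM (79.8 to 91.9) in layer VI and 24.9 CPM (16.1 to 36.8) in layer VIb, against 6.05 to 9.64 CPM in the upper groups. The layer VIb level rested on 25 UMIs, 18 of them in 1 cell. In layer VI Etv1 was detected in 9.77% of thinned and 19.9% of unthinned cells. There 58 of the 931 cells held at least 5 Etv1 UMIs, up to 41 in 1 cell. In layer V it was detected in 21.7% (15.2 to 29.6) of thinned and 65.9% of unthinned cells, at a higher median depth. The median layer V neuron held 0.74 Etv1 UMIs per 10000, whereas the median layer VI neuron held 0.

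Tshz2 stood at 66.3 CPM (61.2 to 71.8) in layer VI, 28.9 CPM (23.4 to 35.5) in layer V and 15.96 CPM (9.13 to 25.9) in layer VIb. The shares did not follow these levels: Tshz2 was detected in 5.37% of thinned and 9.56% of unthinned layer VI cells, and in 5.80% and 14.49% of layer V cells. The layer VI level lay in few cells, of which 42 of 931 held at least 5 Tshz2 UMIs, up to 40 in 1 cell. Igfbpl1-low and Igfbpl1-high layer II/III neurons had 40.1 CPM (36.3 to 44.2) and 33.4 CPM (30.4 to 36.8), whereas layer IV had 4.84 CPM (3.62 to 6.35). The ratio of deep to upper neurons was 2.03 (1.84 to 2.24), and it moved between 1.33 and 2.79 over the alternative settings, on both sides of 2. Of the excitatory groups, in which the 25 Cajal-Retzius neurons (124 CPM, 92.9 to 162) were not counted, the unresolved neurons had the highest level, 81.0 CPM (77.0 to 85.2), and held 38.1% of all Tshz2 UMIs. Most Tshz2 UMIs thus lay outside the deep gates, which held 17.8% of them.

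Nr4a2 (NURR1), an orphan nuclear receptor of the subplate and claustrum, was the one gene with a ratio of deep to upper neurons below 1. It stood at 231.5 CPM (203 to 263) in layer VIb, 14.3 CPM (11.95 to 17.0) in layer VI and 4.36 CPM (2.38 to 7.31) in layer V. Layer VIb over layer VI was 16.2 (13.0 to 20.2). In the upper groups, Igfbpl1-low layer II/III had 109 CPM (102 to 115), Igfbpl1-high layer II/III 24.2 CPM (21.6 to 27.0) and layer IV 25.9 CPM (22.9 to 29.1). The ratio of deep to upper neurons was 0.56 (0.50 to 0.63), so Nr4a2 stood lower in deep neurons as a whole although layer VIb stood highest of all groups. Over the alternative settings this ratio lay between 0.37 and 0.64. The lowest value, without the most abundant marker of each gate, was past 2-fold.

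Nr4a2 was also the gene most concentrated in few cells: 63 of 11062 cells held 50% of its 5457 UMIs, and the highest held 99. By contrast, 1112 cells held that share for Tbr1. Of the cells with at least 5 Nr4a2 UMIs, 42.1% were unresolved excitatory neurons, 24.1% were Igfbpl1-low layer II/III neurons and 10.3% were layer VIb neurons. The 169 excitatory neurons among them had a median depth of 13063 UMIs. Bcl11b stood at 124 CPM and Fezf2 at 22.5 CPM in them, both below layers V and VI, and most of these cells fell outside every deep gate.

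**Figure D2:**
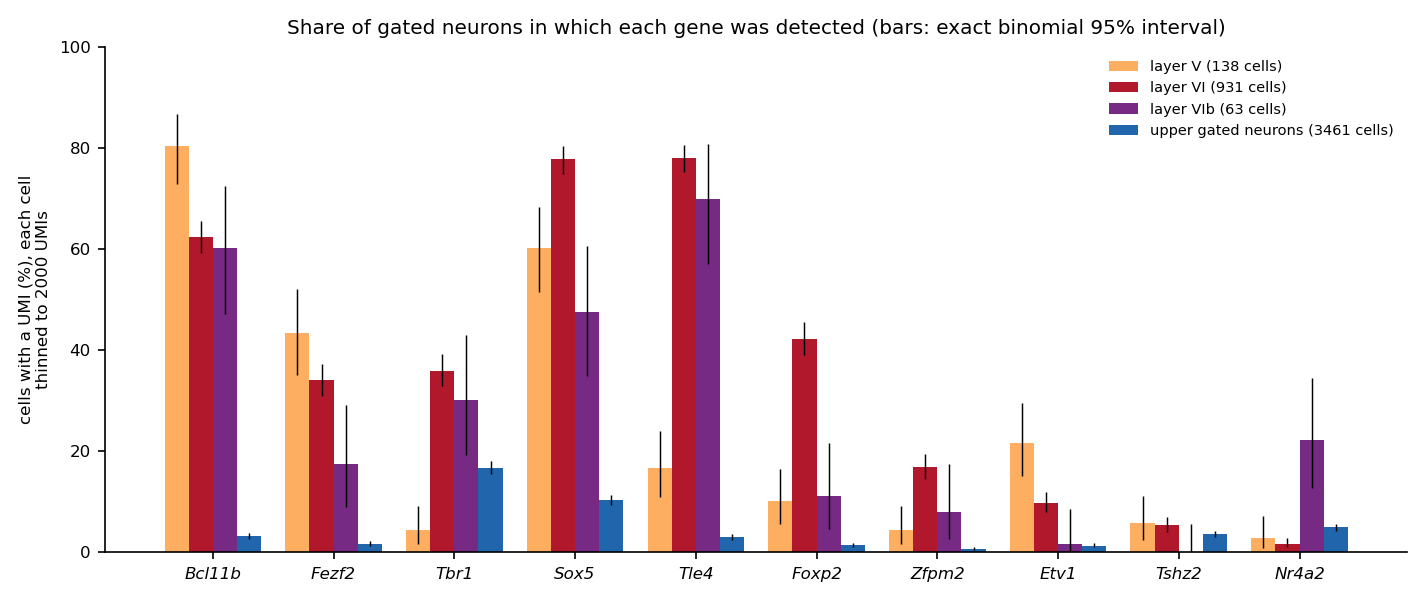
Share of gated neurons (y axis, %) in which at least 1 UMI of each gene was found after thinning to 2000 UMIs, in layer V, VI, VIb and upper gated neurons; black lines are exact binomial 95% intervals. Of the groups drawn, Bcl11b is found most often in layer V, at 80.4%, and Nr4a2 in layer VIb, at 22.2%; shares of different genes are not set against each other.

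Between the deep groups, 6 of the 10 genes stood at least 2-fold higher in layer VI than in layer V (Tbr1, Tle4, Foxp2, Zfpm2, Tshz2 and Nr4a2) and 0 at least 2-fold lower, where 6% of 9230 genes were higher and 3.1% lower. Bcl11b, Fezf2 and Etv1 were lower in layer VI by less than that, with ratios of 0.62 (0.59 to 0.64), 0.86 (0.79 to 0.93) and 0.73 (0.64 to 0.83). The Nr4a2 call rested on 131 UMIs in layer VI, 21 of them in 1 cell, and 14 in layer V. Its thinned shares did not follow, at 1.72% (0.99 to 2.78) of layer VI and 2.90% (0.80 to 7.26) of layer V neurons. Layer VIb over layer VI gave 1 gene at least 2-fold higher (Nr4a2) and 5 at least 2-fold lower (Fezf2, Sox5, Foxp2, Etv1 and Tshz2), against 5.22% and 6.67% of 9369 genes. For Tbr1 and Zfpm2 the ratios were 0.96 (0.83 to 1.10) and 1.09 (0.88 to 1.34), with intervals that include 1. The layer VIb gate held 63 cells, and its cells were deeper than those of layer VI. The layer VI and VIb gates overlapped and set no limit on layer V markers. The layer V gate, by contrast, excluded cells above the layer VI cut.

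Newborn neurons already carried part of the set. Compared with upper gated neurons, 7 of the 10 genes were at least 2-fold higher and 2 at least 2-fold lower (Tshz2 and Nr4a2), where 8.98% and 8.76% of 9514 genes were. Of the 7, Etv1 rested on 35 newborn UMIs, 15 of them in 1 cell. Zfpm2 rested on 26 UMIs, at 11.7 CPM, near the minimum of 10 CPM. Bcl11b stood at 91.9 CPM (79.8 to 105), a ratio of 5.33 (4.53 to 6.26), and Tbr1 at a ratio of 2.78 (2.54 to 3.04). Tbr1 was found in 43.15% of thinned newborn neurons. Their median upper-layer marker sum was 35.9 UMIs per 10000, as high as in layer II/III, so as a whole they were not a deep-layer group by their markers. Their median layer V marker sum was 3.35, above the 0 to 2.26 of the upper groups and below the 22.0 of layer V. The newborn gate set no limit on layer markers, so it did not exclude single cells with deep-layer markers.

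Within layer II/III, Igfbpl1-high over Igfbpl1-low cells gave ratios of 2.30 (1.83 to 2.91) for Tle4, 1.79 (1.46 to 2.21) for Bcl11b and 1.51 (1.38 to 1.64) for Tbr1. For Nr4a2 the ratio was 0.22 (0.20 to 0.25) and for Sox5 0.65 (0.58 to 0.73). Of the 6 genes of at least 10 CPM in either group, 1 was at least 2-fold higher and 1 lower, against 1.95% and 3.49% of 9017 genes. Bcl11b, Tle4 and Tbr1 thus had higher levels in the Igfbpl1-high cells and Nr4a2 in the Igfbpl1-low cells. The Nr4a2 level lay in few cells: 47 of 927 Igfbpl1-low cells held at least 5 UMIs, up to 65 in 1 cell. Among Igfbpl1-high cells 5 of 1732 did. After thinning, Nr4a2 was detected in 8.52% of Igfbpl1-low and 2.48% of Igfbpl1-high cells. For Tle4 both levels, 22.6 and 9.83 CPM, were below the 41.4 CPM of radial glia or astrocytes.

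Inhibitory neurons had Bcl11b and Etv1 and little of most of the rest. Over all 398 inhibitory neurons against 6456 excitatory neurons, 2 of the 10 genes were at least 2-fold higher (Bcl11b at 2.15, 2.01 to 2.30, and Etv1 at 2.51, 2.15 to 2.91) and 7 at least 2-fold lower, where 6.57% and 5.6% of 9636 genes were. Striatal-type neurons held 409 of the 927 inhibitory Bcl11b UMIs. In the Lhx6 and Adarb2 interneurons alone Bcl11b stood at 240 CPM (218 to 264), less than 2-fold above the 178 CPM of excitatory neurons, so its call was lost without them. Etv1 stood there at 68.8 CPM (57.2 to 82.0), beside 31.5 CPM. The 77 unresolved inhibitory neurons held 65 of the 191 inhibitory Etv1 UMIs, at 183 CPM (141 to 233), and without them Etv1 was at 61.1 CPM and a ratio of 1.94, so its call was lost. Fezf2, with 6 UMIs in all inhibitory neurons, gave 0.035 (0.013 to 0.077), and Tbr1, with 13 UMIs, gave 0.045 (0.024 to 0.077). Etv1 fell to a ratio of 1.67 when only cells of at least 5000 UMIs were kept, while Bcl11b was then at 2.38.

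Some of the 10 genes differed between inhibitory groups. In the 29 striatal-type neurons, gated by markers outside the 10 genes and present although the labels name the cortex as the tissue, Bcl11b stood at 1585 CPM (1435 to 1746), the highest level of this gene in any group, and was detected in all 29 thinned cells. Foxp2 stood there at a summed level of 411 CPM (336 to 497), above its 304 CPM in layer VI. Its shares and medians did not follow these levels. After thinning it was detected in 41.4% (23.5 to 61.1) of striatal-type and 42.3% (39.1 to 45.6) of layer VI neurons. The median striatal-type neuron held 1.21 Foxp2 UMIs per 10000 and the median layer VI neuron 2.77. Fezf2, Zfpm2 and Nr4a2 had 0 UMIs in the striatal-type neurons, which allows up to 11.6 CPM each (3 counts). Bcl11b with Foxp2 was thus found without the corticofugal factor Fezf2: 12 of the 29 thinned cells had both. Over Lhx6 interneurons, 3 of the 7 genes of at least 10 CPM in either group were at least 2-fold higher (Bcl11b, Foxp2 and Tshz2, the last on 4 and 7 UMIs) and 2 lower (Etv1 and Nr4a2), where 12.3% and 15.4% of 9978 genes were.

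Lhx6 interneurons had 281 CPM (252 to 313) of Bcl11b and Adarb2 interneurons 159 CPM (129 to 194), a ratio of 0.56 (0.44 to 0.71). Sox5, Foxp2, Etv1 and Tshz2 were higher in Adarb2 interneurons, with ratios of 5.72 (3.29 to 10.4), 4.95 (2.60 to 9.96), 2.18 (1.51 to 3.16) and 5.09 (2.03 to 14.4). Tle4 was lower, at 0.33 (0.13 to 0.74), and so was Nr4a2, at 0.25 (0.048 to 0.81). Of the 7 genes of at least 10 CPM in either group, 4 were at least 2-fold higher and 2 lower, against 10.4% and 12.2% of 9758 genes. These 6 ratios rest on 7 to 65 UMIs of each gene in a group, apart from 3 UMIs of Nr4a2 in Adarb2 interneurons.

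In glia and progenitors, Etv1 alone exceeded its excitatory level by 2-fold. It stood at 143 CPM (126 to 160) in oligodendrocyte precursors, 121 CPM (97.0 to 148) in dividing progenitors and 119 CPM (106 to 134) in radial glia or astrocytes. The intervals of these 3 and of layer V at 117 CPM overlap, so Etv1 did not separate layer V neurons from glia. Over excitatory neurons the ratio was 4.08 (3.73 to 4.46), and 22.7% of 10711 genes were at least 2-fold higher in this comparison. Of the other genes, 7 were at least 2-fold lower, against 16.1% of all.

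Some of the genes had a level outside neurons that reached that of neuronal groups. Fezf2 in radial glia or astrocytes stood at 54.2 CPM (45.0 to 64.6), which overlaps layer VIb, and Sox5 in oligodendrocyte precursors at 142 CPM (125 to 159), which overlaps newborn neurons. Tshz2 and Nr4a2 had 160 CPM (121 to 206) and 129 CPM (95.1 to 172) in the 51 vascular, immune and blood cells. That group was the highest for Tshz2 and pooled several cell types, and the cells behind these values were not resolved further.

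**Figure D3:**
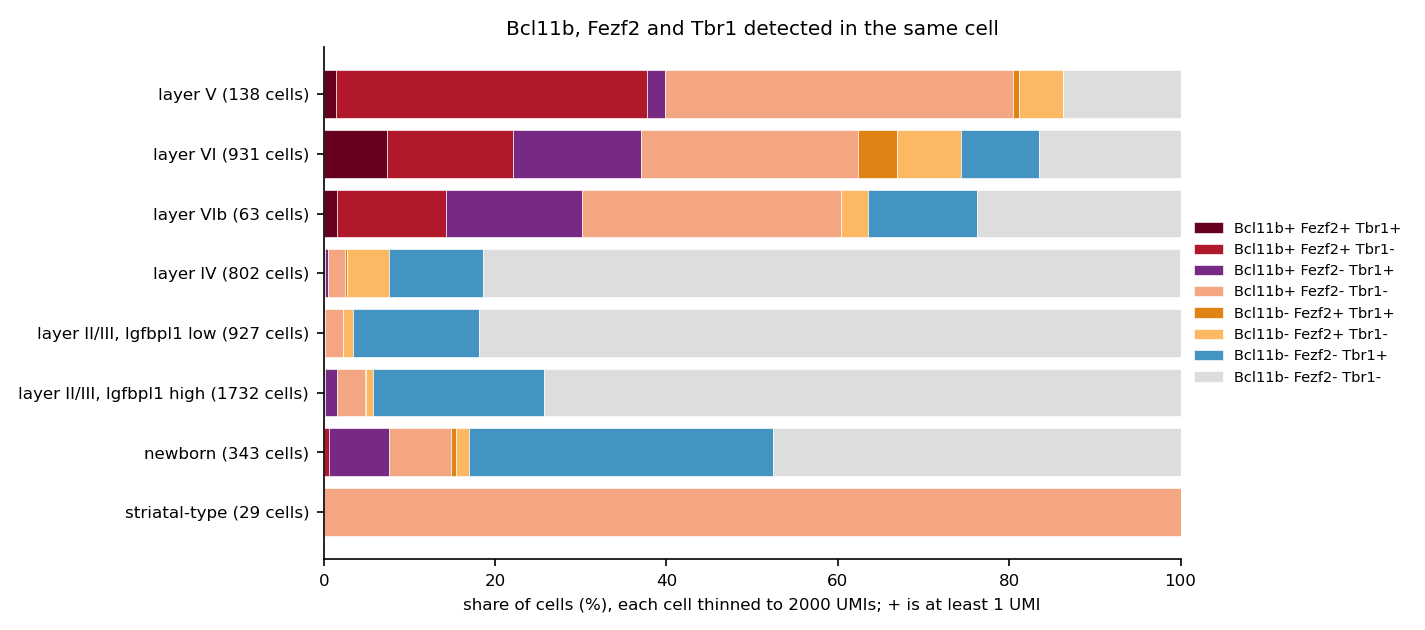
Share of cells (x axis, %) of 8 groups with each combination of Bcl11b, Fezf2 and Tbr1, each cell thinned to 2000 UMIs, where + means at least 1 UMI. At this depth most layer V neurons have a Bcl11b UMI and few a Tbr1 UMI, layer VI holds all 8 combinations, and most upper neurons have no UMI of the 3, which does not show that they lack them.

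Same-cell combinations showed how the factors overlap. In layer V, 36.2% (28.2 to 44.8) of thinned neurons had Bcl11b and Fezf2 without Tbr1, 40.6% (32.3 to 49.3) had Bcl11b with no UMI of the other 2, and 3.62% (1.19 to 8.25) had Bcl11b with Tbr1. In layer VI, 22.3% (19.7 to 25.2) had Bcl11b with Tbr1 and 7.41% (5.81 to 9.29) had all 3. A class without a gene is one without its UMI at 2000 UMIs per cell and not one that lacks it: unthinned, Fezf2 was detected in 95.65% of layer V neurons and Tbr1 in 52.1% of upper gated neurons. Without thinning, Bcl11b with Tbr1 was found in 77.0% of layer VI and 36.2% of layer V neurons, the latter at a median of 20700 UMIs. The thinned share of layer V neurons with Tbr1, 4.35% (1.61 to 9.22), overlaps that of radial glia or astrocytes, 2.90% (1.34 to 5.44), while the summed levels, 30.2 CPM (24.5 to 36.8) and 14.97 CPM (10.4 to 20.9), have intervals that lie apart.

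Sox5, Tle4 and Foxp2 were also counted together. All 3 were detected in 27.7% (24.9 to 30.7) of thinned layer VI neurons, 2.17% (0.45 to 6.22) of layer V neurons and 3.09% (2.28 to 4.09) of unresolved neurons. None of the 3 was detected in 5.26% (3.92 to 6.90) of layer VI neurons, compared with 32.6% (24.9 to 41.1) of layer V neurons. A layer VI neuron had a median of 4 of the 10 genes, a layer VIb neuron 3, a layer V neuron 2, a newborn neuron 1 and an upper neuron of any group 0. Without thinning the medians were 6, 6, 5 and 2 in these groups and 1 to 2 in the upper groups, at unequal depths. At least 5 of the 10 were found in 25.4% (22.6 to 28.3) of layer VI neurons, 5.07% (2.06 to 10.2) of layer V neurons and 0 of 3461 upper gated neurons.

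Within layer VI, most of the 45 pairs were found together about as often as the product of their shares. The product lay within the 95% interval for 39 pairs, above it for 4 and below it for 2, with no correction for the number of pairs. Thinning removes detections at random, for Fezf2 from 73.6% to 34.1% of these cells, and so draws pairs toward the product. A product within the interval therefore does not show that 2 genes vary independently. All 6 exceptions held Etv1 or Tshz2. Etv1 and Tshz2 were found together in 2.47% (1.57 to 3.68) of cells against a product of 0.525%, and Tshz2 was detected in 25.3% (16.8 to 35.5) of Etv1-positive and 3.21% of Etv1-negative cells. Fezf2 with Etv1 was also above its product, at 5.69% against 3.33%.

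The pairs below the product were Etv1 with Tbr1 (1.93% against 3.52%), with Foxp2 (2.47% against 4.14%) and with Zfpm2 (0.322% against 1.66%), and Tshz2 with Foxp2 (0.967% against 2.27%). The 133 excitatory neurons with at least 5 Etv1 UMIs, at a median depth of 13318 UMIs, had 808 CPM of Bcl11b, 369 CPM of Fezf2, 624 CPM of Tle4, 92.9 CPM of Foxp2 and 17.1 CPM of Zfpm2. Their Foxp2 and Zfpm2 thus lay below the 304 and 93.6 CPM of layer VI as a whole, while Fezf2 lay above its 219 CPM. Of the cells with at least 5 Etv1 UMIs, 58 were layer VI, 46 unresolved and 22 layer V neurons. For layers V and VIb and for newborn neurons, the product lay within the interval for all 45 pairs, in fewer cells. In upper gated neurons it lay within the interval for 39 pairs. The share with both genes was above the product for 5 (Bcl11b with Tle4, Bcl11b with Foxp2, Sox5 with Foxp2, Sox5 with Nr4a2 and Tle4 with Foxp2) and below it for 1 (Sox5 with Tshz2), on 5 to 28 cells with both. Among the 1520 unresolved neurons, which mix layers, the share with both genes was above the product for 23 pairs and below it for 2, Nr4a2 with Fezf2 and Nr4a2 with Tbr1.

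**Figure D4:**
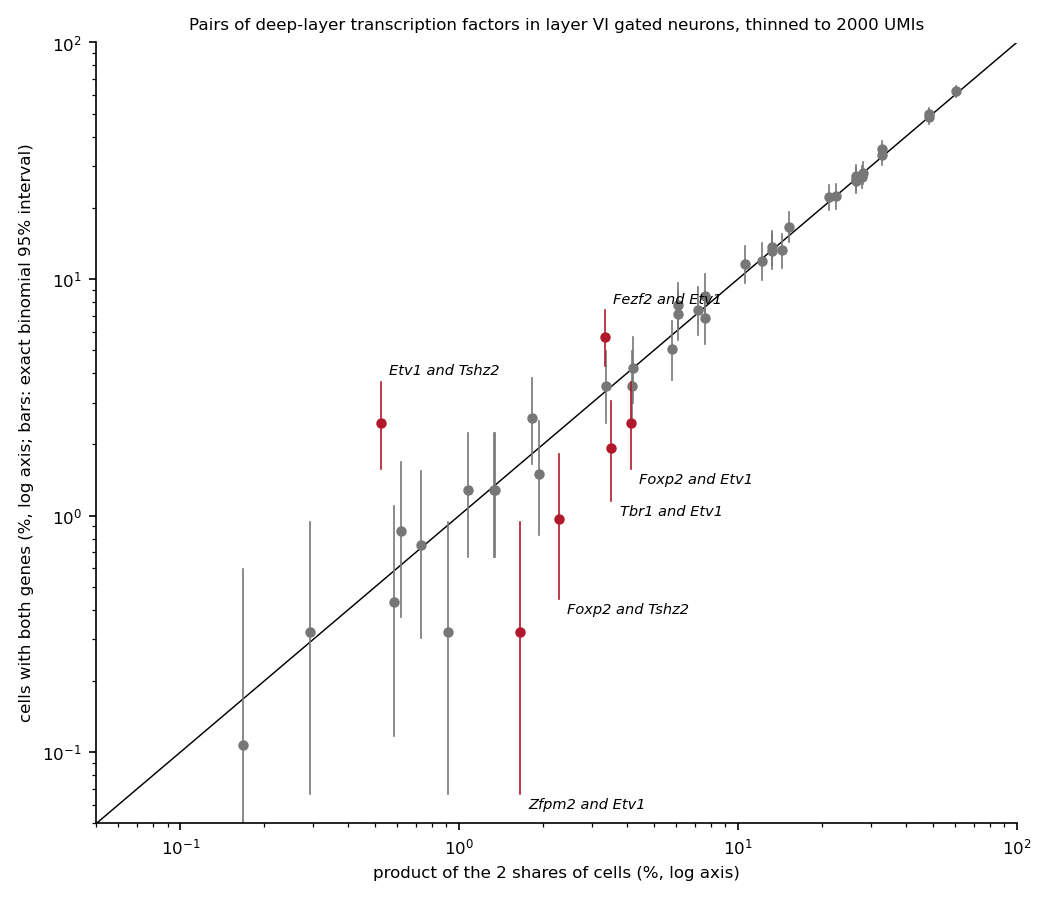
Share of layer VI neurons with both genes of a pair (y axis, %, log scale) against the product of the shares of each gene (x axis, %, log scale), thinned to 2000 UMIs, with exact binomial 95% intervals; the diagonal marks equality, and the pair Tshz2 and Nr4a2, found in 0 cells, is not drawn. The 6 pairs in red, all with Etv1 or Tshz2, have a product outside the interval, and Etv1 with Tshz2 lies farthest above the line.

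Genes of the same families were compared next, to see whether the deep bias was shared. Of 17 listed paralogs, 9 had at least 10 CPM in deep or upper gated neurons, of which 3 were at least 2-fold higher in deep neurons and 2 at least 2-fold lower, with a median ratio of 0.88, beside 6.13%, 4.6% and a median of 1.01 over all genes. Tle1 and Tle3 were opposite to Tle4: Tle1 stood at 15.3 CPM in deep and 86.0 CPM in upper gated neurons (ratio 0.18, 0.15 to 0.21), and Tle3 at 14.7 and 87.4 CPM (0.17, 0.14 to 0.19). Tle4 was at 605 and 15.4 CPM. Bcl11a, at 553 and 764 CPM (0.72, 0.71 to 0.74), did not share the deep bias of Bcl11b, nor did Foxp1, at 0.60 (0.58 to 0.62), share that of Foxp2.

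Etv5, at 11.7 CPM in deep and 2.12 CPM in upper neurons (5.53, 4.16 to 7.42), was higher in deep neurons, as Etv1 was. Tshz3 stood at 231 CPM in deep and 60.7 CPM in upper neurons (3.81, 3.60 to 4.03), a larger ratio than that of Tshz2, and reached 318 CPM (284 to 355) in layer VIb, where Tshz2 was at its lowest among deep groups. Nr4a3 stood at 66.1 and 24.5 CPM (2.70, 2.45 to 2.97), in the opposite direction to Nr4a2. Its highest excitatory layer group was layer VI, at 84.2 CPM (78.4 to 90.4), beside 22.0 CPM (13.8 to 33.2) in layer VIb. Reads of near-identical family members could not be told apart further than the authors' counting did.

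**Figure D5:**
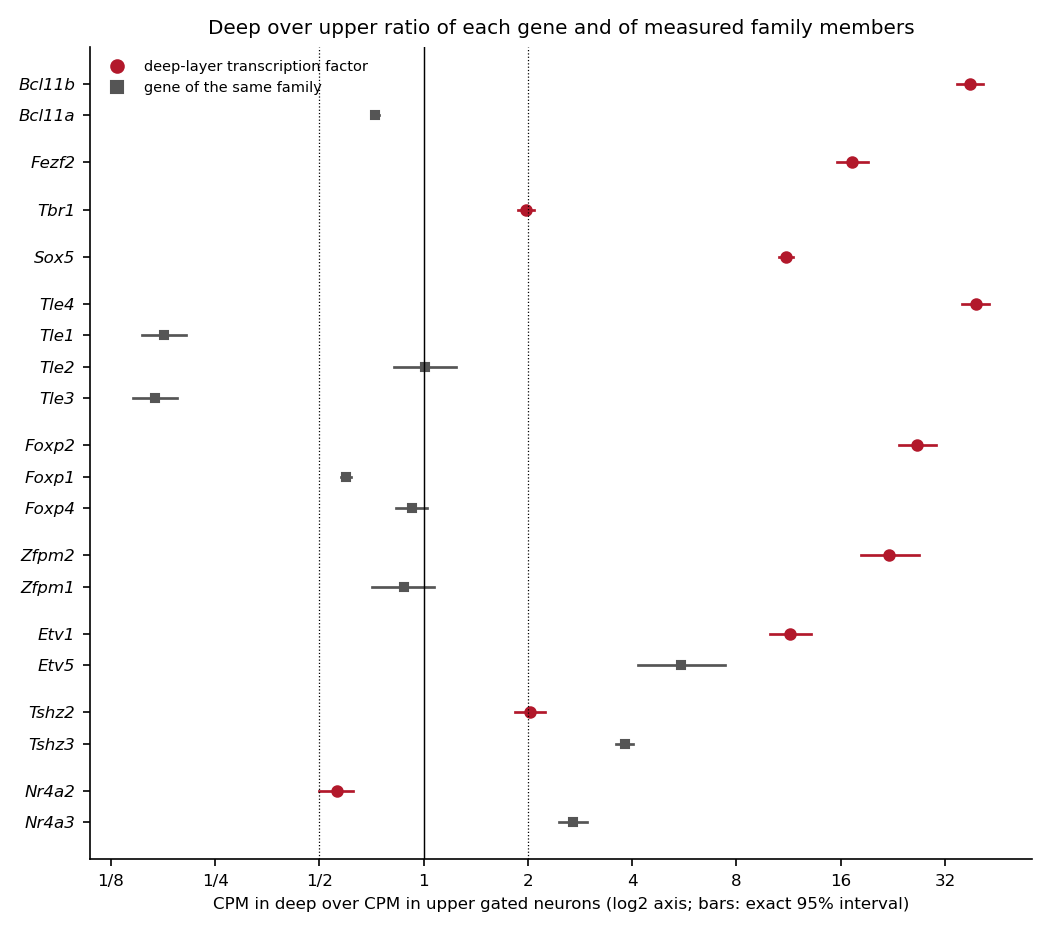
Ratio of the level in 1132 deep gated neurons to that in 3461 upper gated neurons (x axis, log2 scale), with exact 95% intervals. Red circles are the 10 genes, and grey squares are the measured paralogs and Tle2. At 9.87 CPM in deep and 9.75 CPM in upper neurons, Tle2 fell short of the minimum of 10 CPM. Dotted lines mark 2-fold. The red circles run from 0.56 for Nr4a2 to 39.2 for Tle4, while Tle1 and Tle3 lie below 0.2 and Tshz3 and Nr4a3 lie to the right of Tshz2 and Nr4a2.

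Of 12 partner and opposing factors, all of at least 10 CPM, 1 was at least 2-fold higher in deep neurons and 6 at least 2-fold lower, with a median ratio of 0.51, beside the same 6.13%, 4.6% and 1.01 over all genes. Among the lower ones were Lmo4 (0.28), Prdm8 (0.18), Nr2f1 (0.40) and Cited2 (0.40). Nfia, a nuclear factor I gene, was the one that was higher, at 568 and 107 CPM (5.33, 5.12 to 5.55), and within the deep layers it followed layer VI (725 CPM) rather than layer V (127 CPM).

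Finally, the level of each gene over 13 groups of at least 50 cells was compared with that of 6998 genes by the Pearson correlation of log2(CPM + 10), as a description over groups of 1 library. Gate markers were left out, and the minimum of 50 cells left out the 29 striatal-type neurons. Bcl11b and Foxp2 stood highest in those neurons, at 1585 and 411 CPM, while Sox5 was at 15.5 CPM there. Bcl11b was most like the predicted gene Gm20371 (0.97) and then Lrrtm4 (0.93), Fezf2 was most like Sox5 (0.87), and Foxp2 was also most like Sox5 (0.85). Tbr1 was most like Wnt7b (0.97), Sox5 like B3gat1 (0.88), Tle4 like Cidea (0.90) and Zfpm2 like Otud6b (0.88). Etv1 was most like Ddah1 (0.90), Tshz2 like Dcbld1 (0.77) and Nr4a2 like Ube2q1 (0.78). Within the 10, Tle4 and Zfpm2 (0.88) were alike, while Nr4a2 stayed between -0.48 and 0.25 with every other gene and Tshz2 between -0.14 and 0.22.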

How the data were processed

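The values that the authors deposited were raw UMI counts per gene and cell from 1 WT library, with a table of UMI counts and detected genes per cell. A sequencing company had run Cell Ranger on the reads, and the submitters' processing notes name STAR, Cell Ranger version 2, Seurat and mm9 without roles; filters beyond a smallest total of 500 UMIs per cell are not given in the sources used here.

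Cells of at least 200 genes and 2000 UMIs (mitochondrial genes left out; 2616 cells were below a minimum) were gated by marker UMIs: at least 4 UMIs from 2 or more markers for excitatory or inhibitory neurons, and per 10000 UMIs at least 16 for upper layers, 3 for layer IV, 12 for layers V and VI, 3 for layer VIb and 5 for newborn neurons, with limits on other layers' markers. The layer VI and VIb gates limited upper-layer markers alone, and the newborn gate limited none. The layer V gate also excluded cells above the layer VI cut. A neuron above both cuts could thus be counted in layer VI or VIb but not in layer V. Of 367 excitatory neurons above the layer V cut, 138 were in the layer V group. A neuron that passed several gates was counted as newborn, then layer VIb, then layer VI. Layer II/III was split at 8 Igfbpl1 UMIs per 10000. Doublets were not called; instead, 350 cells that passed gates of different lineages were left out, as were 547 that passed none. Thinning used a fixed seed. Groups that pool others, such as deep and upper gated neurons, were thinned in draws separate from those of their parts. Their counts of thinned cells are therefore not sums of the parts. A Zfpm2 UMI was found in 152 thinned deep gated neurons, beside 6, 158 and 5 thinned neurons of layers V, VI and VIb. Ratios compare summed CPM, and genes of at least 10 CPM in either group counted as measured. Intervals are exact Poisson, exact binomial or, for ratios, exact conditional binomial. Python 3.11.15, numpy 2.4.6, scipy 1.17.1 and pandas 2.3.3 were used. The fold step was tested on simulated data.

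The 10 genes, the paralogs, the partners and all marker lists were chosen with earlier results of these data known. Gate cuts were set after marker UMIs, but not values of the 10 genes, had been seen, and Igfbpl1, Cacna2d2 and Cspg4 were then taken out of the newborn, Cajal-Retzius and mural lists. Named genes are all 10, paralogs and partners that differ at least 2-fold between deep and upper neurons at 50 CPM or more in either, and the gene most like each of the 10 (highest r among genes of at least 50 CPM in a group). Lrrtm4, Bcl11a, Foxp1, Etv5 and the gate markers were named after their values were seen. Results for some listed genes are not reported here. The depth minimum, marker UMIs, deep and damaged cells, the most abundant marker of each gate, the total, the fold, the minimum level, the thinning, the layer cuts and the inhibitory groups pooled were varied.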

Additional observations from a re-analysis of the deposited data

How the results depend on the processing

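No paired analysis was possible because a lone library has no partner sample. The count of 8 genes at least 2-fold higher in deep neurons ranged from 7 to 9 over 10 alternatives, and 0 of the deep to upper ratios changed direction. At a 1.5-fold limit 11.64% of genes were past it and at a 3-fold limit 3.253%, beside 9 and 7 of the 10 genes; with no minimum level 17.93% of 27060 genes were past 2-fold, beside 8 of the 10. Tbr1 passed 2 with cells of at least 5000 UMIs (2.003) and without cells above 20000 UMIs (2.44), and Tshz2 fell below it (1.33) without the most abundant marker of each gate. In that last setting Nr4a2, at 0.37, was at least 2-fold lower in deep neurons. With cells of at least 5000 UMIs, 1 gene rather than 2 was 2-fold higher in inhibitory neurons. The count was also 1 without striatal-type neurons (Etv1, at 2.78; Bcl11b at 1.35) and without unresolved inhibitory neurons (Bcl11b, at 2.29; Etv1 at 1.94), alternatives chosen after seeing the data. Without the most abundant marker of each gate, 25.3% of layer VI neurons had Bcl11b with Tbr1. With thinning to 5000 UMIs, shares were 58.8% for Bcl11b with Tbr1 and 52.2% for Bcl11b with Fezf2 in layer VI, 8.96% for Bcl11b with Tbr1 in layer V and 7.16% for Bcl11b in upper neurons; with no thinning they were 77.0%, 69.7%, 36.2% and 11.2%, since a share rises with depth. Layer cuts raised by 25%, an alternative chosen after seeing the data, left 1039 deep and 3201 upper neurons and the count at 8.

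With 1 library, the spread between animals, litters and libraries was not measured, and the intervals do not cover it. Intervals of levels and ratios take each UMI as a separate count, so they do not cover the spread between cells either. They are too narrow for genes whose UMIs lie in few cells, such as Nr4a2 and Tshz2. Layer V (138), layer VIb (63) and striatal-type (29) groups are small.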
